A study of Mus musculus with 10 samples.

Results

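The cytochrome P450 family is described here as the genes of the expression table whose symbol is Cyp followed by a family number, subfamily letters and a member number. Of 24525 genes in the table, 94 met this rule. Their messenger RNA was sequenced, after selection for poly(A) tails, from colon tissue of male C57BL/6 mice, called C57BL/6N in the growth protocol. The groups were 5 tumours, labelled CRC-tumor, and 5 samples of tissue next to tumours, labelled Adjacent-normal. Both groups came from mice given azoxymethane (AOM), an alkylating colon carcinogen, once at 12.5 mg/kg, and then 3 cycles of dextran sulfate sodium (DSS), a polymer that injures the colonic epithelium, at 2% in the drinking water for 5 days followed by 16 days of tap water. Mice were 7 weeks old at 18 to 20 g, and samples were taken 10 weeks after AOM. The adjacent tissue had thus received both agents, and no library is labelled as coming from an untreated mouse. Each library is 1 piece of bulk tissue. One mouse is given as the source of every library although the titles number 1 to 5 in each group, so it is not settled which libraries share an animal, and p-values measure the spread between these samples.

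Expression is given in FPKM, a fragment count scaled by transcript length and by all mapped fragments, so levels can be compared between genes. The table totals 462009 to 484712 FPKM per library. Its low values pointed to roughly 21300000 to 26300000 fragments per library, at which 1 fragment in a transcript of 2000 bases is worth 0.0190 to 0.0235 FPKM, and values near that size rest on single fragments. Differences were tested with limma on log2(FPKM + 1) over 13016 genes whose mean reached 1 FPKM, and fold changes are tumour minus adjacent on that scale, which understates the change of low genes. Of all genes tested, 76.5% passed an adjusted p of 0.05, 57.2% higher and 19.3% lower in tumours. The median log2 change of all these genes was 0.35. With each library's median subtracted, 34.5% were higher and 33.3% lower, and with quantile normalization 36.6% and 30.2%.

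P450 enzymes are haem proteins that insert oxygen into fat-soluble substrates. Those of the endoplasmic reticulum take electrons from P450 oxidoreductase (Por) and oxidise drugs, dietary chemicals, steroids and fatty acids, and those of mitochondria take them from ferredoxin and act on sterols and vitamin D. In the intestine, drug-metabolising members are best known from mature absorptive cells, where nuclear receptors control their transcription. AOM itself is activated by P450 enzymes, for which Cyp2e1 is best known.

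Most of the P450 expression of adjacent tissue was missing from tumours. Summed over the 94 members, expression was 163, 221, 190, 228 and 160 FPKM in tumours 1 to 5, against 1045, 793, 866, 952 and 874 FPKM in adjacent samples 1 to 5. Every tumour lay below every adjacent sample. The means were 192 ± 31.8 FPKM in tumours and 906 ± 95.9 FPKM in adjacent tissue (SD, n = 5 each), or 0.0410% and 0.188% of the table total. Cyp2c55 held 26.2% of the adjacent sum on average and 0.719% of the tumour sum. Without Cyp2c55 the sums were 159 to 226 FPKM in tumours and 586 to 791 FPKM in adjacent samples. The most abundant member was Cyp27a1 in tumours 1, 3, 4 and 5 and Cyp2d34 in tumour 2, against Cyp2c55 in adjacent samples 1, 3 and 4 and Cyp2d34 in adjacent samples 2 and 5.

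**Figure D1:**
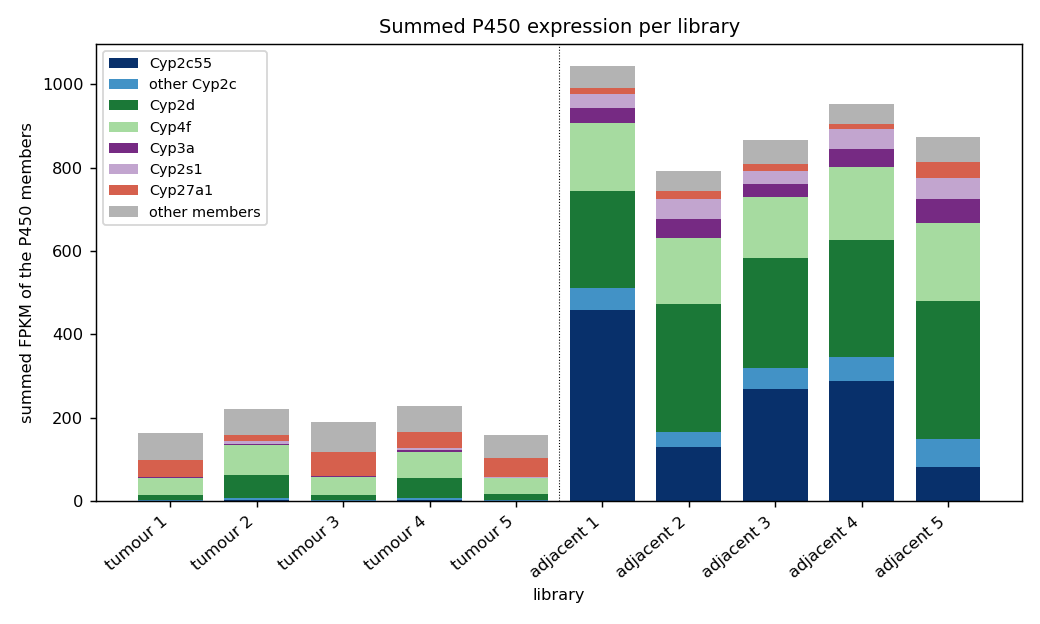
Summed FPKM of the 94 P450 members in each library (vertical axis, FPKM), with tumours 1 to 5 left of adjacent samples 1 to 5 and colours for subfamilies or single genes. The tumour bars reach 160 to 228 FPKM and the adjacent bars 793 to 1045 FPKM, and the Cyp2c55 part is barely visible in tumours.

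Of the 94 members, 13 were listed at 0 in every library, 81 were above 0 in at least 1 library, and 29 passed the expression filter. The number at 1 FPKM or more was 21 to 30 per tumour and 26 to 29 per adjacent sample. Among the 29 tested members, 18 (62.1%) fell and 8 (27.6%) rose, where 19.3% of all genes tested fell and 57.2% rose. The other 3 did not pass. The median log2 change of the 29 tested members was -1.39, against 0.35 over all genes tested. In 18 members every tumour lay below every adjacent sample, as in 14.3% of all genes tested, and in 5 every tumour lay above, as in 46.5%. A log2 change of -3 or lower with an adjusted p under 0.05 was found for 11 members, and for 0.791% of all genes tested. For 13 members it was -2 or lower, as for 2.2% of all genes. The largest rise was 1.83, that of Cyp2b10, whereas 2.49% of all genes rose by 2 or more. With medians subtracted 19 members fell and 5 rose, and the same counts were found with quantile normalization. Among the members tested, 3 had an adjacent mean under 1 FPKM (Cyp2b10, Cyp11a1 and Cyp21a1) and 3 a tumour mean under 1 FPKM (Cyp2f2, Cyp2d11 and Cyp2d13), so they passed the filter through 1 group, and these counts describe the tested members alone.

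**Figure D2:**
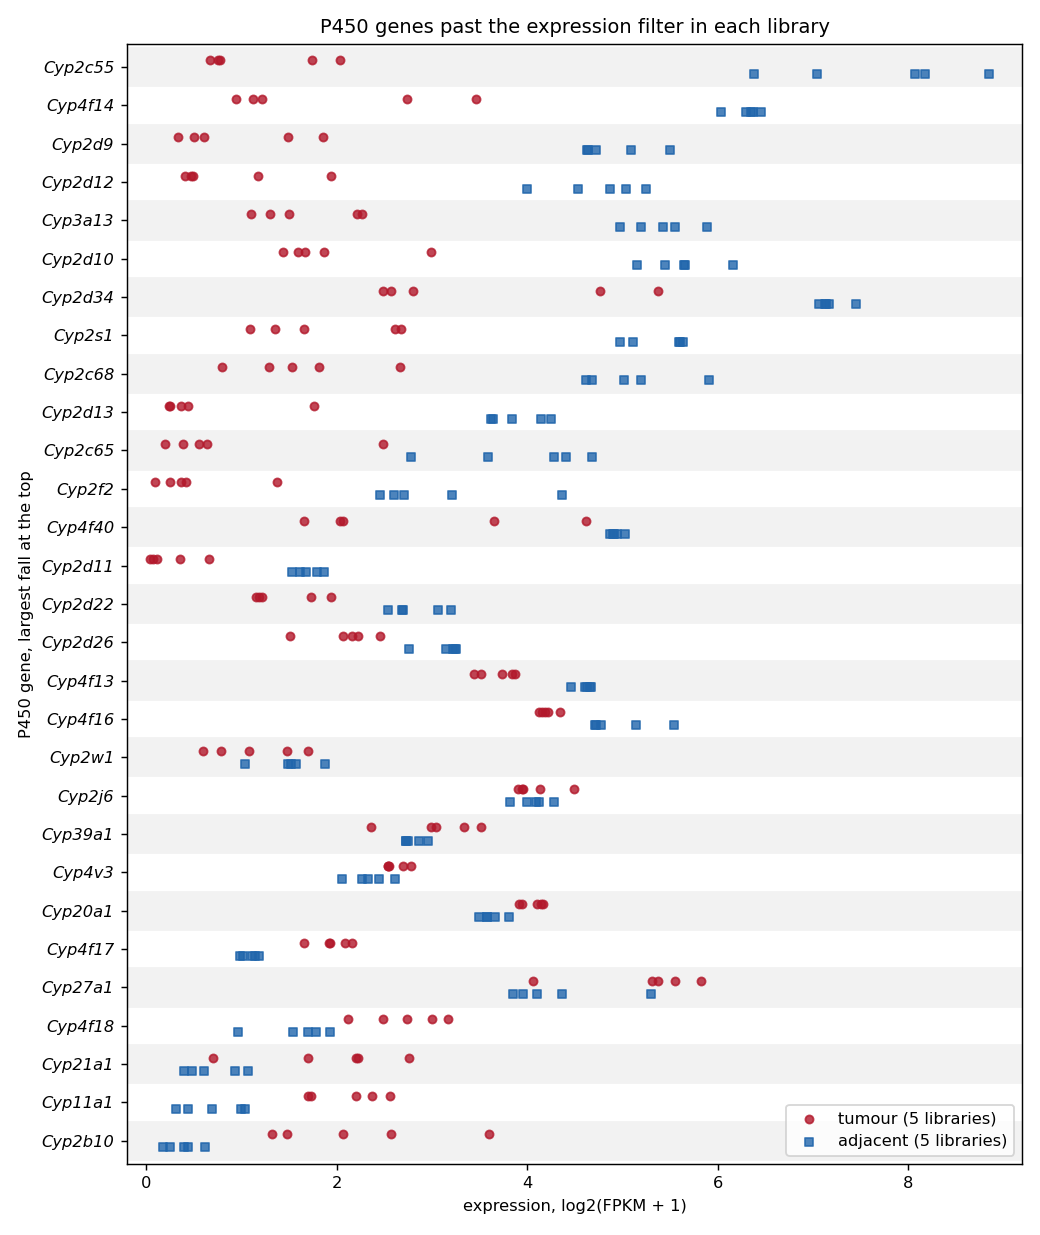
Expression of the 29 P450 genes past the filter, on the log2(FPKM + 1) scale, with 1 point per library, tumours (circles) above adjacent samples (squares) for each gene and genes ordered by log2 change. The 18 genes at the top have no overlap between the groups, and Cyp2b10 at the bottom lies highest in tumours relative to adjacent tissue.

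The deepest fall was in the Cyp2c subfamily. Cyp2c55, which oxidises arachidonic acid, was at 0.69, 3.10, 0.71, 2.34 and 0.59 FPKM in tumours 1 to 5, against 459, 131, 269, 288 and 82.1 FPKM in adjacent samples 1 to 5. The lowest adjacent sample was thus far above the highest tumour. The log2 change was -6.51 (SE 0.47; limma adjusted p = 1.06e-05), and mean FPKM was 165-fold higher in adjacent tissue. Cyp2c65, an intestinal relative that also acts on arachidonic acid, was at 0.15, 4.60, 0.31, 0.56 and 0.47 FPKM in tumours, against 24.7, 11, 18.4, 20.3 and 5.89 FPKM in adjacent samples. Tumour 2 came close to adjacent sample 5, the lowest adjacent sample for both genes. Its log2 change was -3.09 (SE 0.48; limma adjusted p = 0.000206).

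Cyp2c68 was at 1.44, 0.74, 1.89, 5.37 and 2.51 FPKM in tumours, against 24.7, 23.6, 31.4, 35.6 and 59.0 FPKM in adjacent samples (log2 change -3.46, SE 0.35; limma adjusted p = 2.39e-05). Here adjacent sample 5 was the highest and tumour 2 the lowest, unlike for Cyp2c55 and Cyp2c65. Of the transcript of Cyp2c68, 43.3% of the stretches of 50 bases also occur in other genes, most of them in Cyp2c40, so its level is uncertain. For Cyp2c65 the share was 20.6%, mostly with Cyp2c66, and for Cyp2c55 it was 0.514%. The other 12 Cyp2c members were below the filter, and 5 of them were at 0 in every library. Among these, Cyp2c69 was at 0 in 4 tumours and 0.05 FPKM in tumour 4, against 1.01 to 2.04 FPKM in adjacent samples. Liver-type members such as Cyp2c29 and Cyp2c37 were at 0 throughout.

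Cyp2c55 (chromosome 19, 39007019 to 39042693, GRCm38), Cyp2c65 (39061015 to 39093944) and Cyp2c68 (39688834 to 39741054) lie in 1 cluster of 14 Cyp2c members. The 300 bases around their starts are shown from RefSeq (GRCm38.p6) because all 3 fell, with those of Cyp2b10, the largest rise, for comparison. Capitals mark matches on either strand to TATAAA, to CAAAGTCCA (a binding site of HNF4), to GTTAAT (part of an HNF1 site), to GCGTG (the core of the aryl hydrocarbon receptor site) and to AGGTCA (the core of nuclear receptor sites).
Cyp2c55, chr19:39006769-39007068, plus strand: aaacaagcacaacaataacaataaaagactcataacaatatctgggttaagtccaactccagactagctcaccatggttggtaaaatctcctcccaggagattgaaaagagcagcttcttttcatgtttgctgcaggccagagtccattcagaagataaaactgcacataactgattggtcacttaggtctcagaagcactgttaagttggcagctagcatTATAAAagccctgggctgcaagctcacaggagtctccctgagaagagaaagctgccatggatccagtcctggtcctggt
Cyp2c65, chr19:39060756-39061055, plus strand: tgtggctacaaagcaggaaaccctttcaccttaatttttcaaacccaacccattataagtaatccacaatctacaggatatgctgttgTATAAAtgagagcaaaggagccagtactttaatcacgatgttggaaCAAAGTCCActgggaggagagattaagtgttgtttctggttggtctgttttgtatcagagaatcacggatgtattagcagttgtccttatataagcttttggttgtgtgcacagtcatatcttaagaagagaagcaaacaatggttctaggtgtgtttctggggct
Cyp2c68, chr19:39741052-39741351, minus strand: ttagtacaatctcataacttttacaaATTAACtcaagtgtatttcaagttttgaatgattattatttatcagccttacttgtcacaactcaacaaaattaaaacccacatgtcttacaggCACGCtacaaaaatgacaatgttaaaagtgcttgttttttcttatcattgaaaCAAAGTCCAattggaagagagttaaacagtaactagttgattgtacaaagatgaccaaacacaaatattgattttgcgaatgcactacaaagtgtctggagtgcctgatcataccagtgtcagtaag
Cyp2b10, chr7:25897408-25897707, plus strand: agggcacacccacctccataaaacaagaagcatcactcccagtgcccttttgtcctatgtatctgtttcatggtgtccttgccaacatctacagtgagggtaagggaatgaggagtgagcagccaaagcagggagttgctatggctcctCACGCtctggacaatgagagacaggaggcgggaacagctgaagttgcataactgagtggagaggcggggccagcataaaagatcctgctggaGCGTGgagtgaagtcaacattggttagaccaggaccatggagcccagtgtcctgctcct
TATAAA begins 29 bases before the start of Cyp2c55 and 162 bases before that of Cyp2c65. CAAAGTCCA begins 116 bases before the start of Cyp2c65 and 77 bases before that of Cyp2c68, and occurs in 0.475% of 32851 promoters of this length. TATAAA occurs in 13.6% of them. The 14 fallen members with an entry had 18 entries, of which 6 held TATAAA. These were of Cyp2c55, Cyp2c65, Cyp2d9, Cyp2d10, Cyp2d11 and Cyp2d26, and the Cyp2d genes among them lie in 1 cluster. None of the 7 entries of the 6 risen members held it, and 7 entries are too few to set against 13.6%. GCGTG, in 32.4% of all promoters, was in the fallen Cyp2c68, Cyp4f14 and Cyp4f16 and in the risen Cyp2b10, Cyp20a1 and Cyp4v3, and began 101 and 9 bases before the start of Cyp2b10. GTTAAT, in 7.10% of all promoters, was in Cyp2c68, Cyp2d26, Cyp4f14 and Cyp4f40, and AGGTCA, in 16.3%, in Cyp2f2 and Cyp11a1.

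All 8 Cyp2d members that were tested fell. This subfamily corresponds to human CYP2D6, an enzyme of many drugs. Its summed level was 12.0 to 54.5 FPKM in tumours, against 234 to 331 FPKM in adjacent samples. Cyp2d34, the most abundant, was at 4.62, 40.4, 4.96, 26.3 and 5.97 FPKM in tumours 1 to 5, against 133, 174, 139, 139 and 143 FPKM in adjacent samples 1 to 5. Tumours 2 and 4 kept clearly more than the other 3 tumours. The log2 change was -3.59 (SE 0.54; limma adjusted p = 0.000179). Cyp2d10 was at 2.17, 2.64, 1.70, 6.95 and 2.03 FPKM in tumours, against 34.7, 49.0, 49.5, 42.5 and 70.6 FPKM in adjacent samples (log2 change -3.70, SE 0.29; limma adjusted p = 1.40e-05). Tumour 4 stood above the other tumours, and adjacent sample 5 was the highest.

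Cyp2d9, a testosterone hydroxylase in male mouse liver, was at 0.52, 1.82, 0.26, 2.63 and 0.42 FPKM in tumours, against 23.9, 23.8, 25.4, 33.0 and 44.4 FPKM in adjacent samples (log2 change -3.96, SE 0.31; limma adjusted p = 1.40e-05). Cyp2d12 was at 0.33, 1.26, 0.41, 2.83 and 0.39 FPKM in tumours, against 15.0, 28.3, 22.2, 31.8 and 37.0 FPKM in adjacent samples (log2 change -3.84, SE 0.33; limma adjusted p = 1.70e-05). Cyp2d13 was at 0.18, 0.36, 0.19, 2.39 and 0.29 FPKM in tumours, against 11.3, 16.7, 11.5, 13.4 and 18.0 FPKM in adjacent samples (log2 change -3.29, SE 0.28; limma adjusted p = 1.66e-05). In all 3, tumour 4 was the highest tumour and no tumour reached the adjacent range. On the log2(FPKM + 1) scale, smaller changes were those of Cyp2d11 (-1.45, SE 0.14), Cyp2d22 (-1.39, SE 0.19) and Cyp2d26 (-1.04, SE 0.17), whose limma adjusted p was at most 0.00025. For Cyp2d11 this scale understates the fall, because its mean was only 0.204 FPKM in tumours and 2.254 FPKM in adjacent tissue. Relative to its adjacent mean, Cyp2d11 was kept at 1.33% to 25.7% in tumours, against 3.17% to 27.7% for Cyp2d34. Cyp2d22, often taken as the mouse counterpart of CYP2D6, averaged 1.80 ± 0.743 FPKM in tumours and 6.26 ± 1.44 FPKM in adjacent tissue (SD, n = 5 each). Cyp2d26 averaged 3.34 ± 0.961 and 7.80 ± 1.16 FPKM in the same order.

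On chromosome 15, Cyp2d22, Cyp2d11, Cyp2d10, Cyp2d9, Cyp2d12, Cyp2d34, Cyp2d40 and Cyp2d26 form a cluster from 82370527 to 82794294 (GRCm38). The 7 of them that were tested fell, and Cyp2d40, below the filter, was at 0.00 to 0.21 FPKM in tumours, against 0.22 to 0.96 FPKM in adjacent samples. Reads cannot always be assigned within such a cluster. The share of 50-base stretches found in other genes was 40.5% for Cyp2d10, 37.2% for Cyp2d11, 29.0% for Cyp2d9, 17.9% for Cyp2d12, 13.7% for Cyp2d34, 10.5% for Cyp2d26 and 6.14% for Cyp2d22. Levels of the single genes are uncertain to that extent, and no source used here says how the authors' tools split such reads. For Cyp2d13, which had no entry under that symbol in the annotation used, the share was not computed.

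Among the other drug-metabolising members, Cyp3a13 and Cyp2f2 fell and Cyp2b10 rose. Cyp3a13, a CYP3A enzyme of the mouse intestine with no stretch of 50 bases shared with another gene, was at 1.15, 3.64, 1.47, 3.83 and 1.84 FPKM in tumours, against 35.7, 46.0, 30.5, 42.1 and 58.4 FPKM in adjacent samples. Its log2 change was -3.73 (SE 0.25; limma adjusted p = 9.63e-06). The groups were far apart, with tumours 2 and 4 again the highest tumours. Cyp2f2, best known from airway club cells, where it activates naphthalene, was at 0.34, 0.07, 0.19, 1.60 and 0.29 FPKM in tumours, against 4.47, 5.06, 8.28, 5.54 and 19.6 FPKM in adjacent samples (log2 change -2.56, SE 0.37; limma adjusted p = 0.000133). Adjacent sample 5 and tumour 4 were the high ones of their groups.

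Cyp2b10, the classical target of the xenobiotic receptor CAR (Nr1i3), was at 4.96, 1.51, 11.1, 3.19 and 1.78 FPKM in tumours, against 0.32, 0.19, 0.36, 0.13 and 0.54 FPKM in adjacent samples. All tumours were above all adjacent samples, and tumour 3 was the highest. Mean FPKM was 14.6-fold higher in tumours, and the log2 change was 1.83 (SE 0.38; limma adjusted p = 0.00119). The other 4 Cyp2b members were at most 0.05 FPKM in any library. Other drug-metabolising members were low in both groups. Cyp1a1 was at 0.02 to 0.05 FPKM in tumours and 0.00 to 0.16 FPKM in adjacent samples, Cyp1b1 at 0.03 to 0.30 and 0.03 to 0.14 FPKM, and Cyp1a2 at or under 0.02 FPKM everywhere. Cyp2e1 was at 0.30 to 0.69 FPKM in tumours and 0.19 to 0.69 FPKM in adjacent samples. Cyp3a11, a main CYP3A enzyme of mouse liver, was at 0 in every tumour and at most 0.03 FPKM in adjacent samples.

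**Figure D3:**
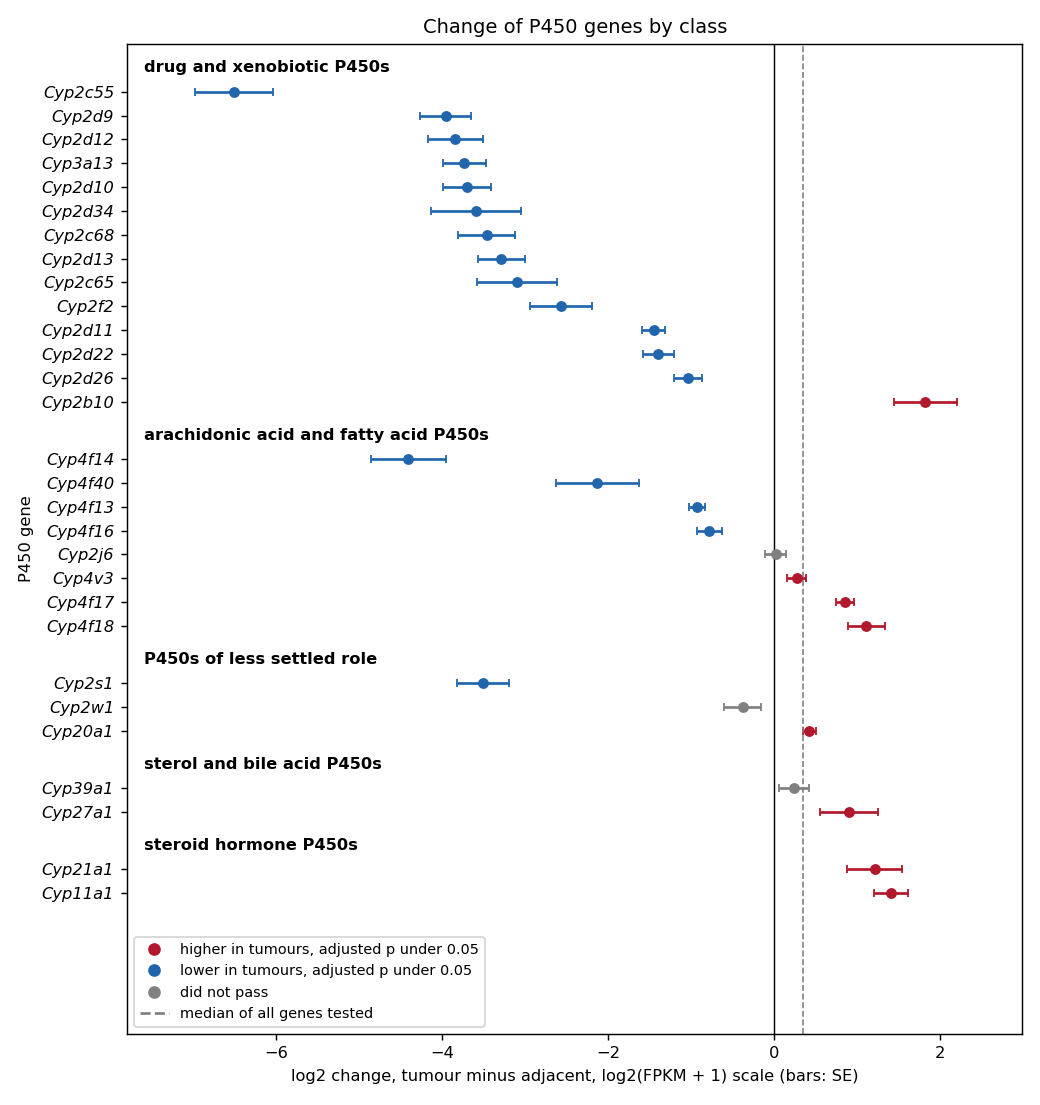
Log2 change, tumour minus adjacent, of the 29 tested P450 genes on the log2(FPKM + 1) scale, grouped by broad class, assigned by subfamily (so that all Cyp2c genes stand with the drug and xenobiotic ones, also those that act on arachidonic acid), with bars for the SE and a dashed line at 0.35, the median of all genes tested. Of the 14 drug and xenobiotic genes 13 fell and Cyp2b10 rose, where 19.3% of all genes tested fell and 57.2% rose; both steroid hormone genes, which passed the filter through their tumour levels, rose.

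Cyp2s1, an epithelial enzyme outside the liver that acts on eicosanoids, was at 1.56, 5.41, 1.13, 5.11 and 2.16 FPKM in tumours, against 33.6, 47.7, 30.4, 47.3 and 48.7 FPKM in adjacent samples (log2 change -3.50, SE 0.32; limma adjusted p = 1.90e-05). The lowest adjacent sample exceeded the highest tumour by a wide margin. Cyp20a1, which has no settled substrate, was at 16.2, 14.5, 16.7, 16.98 and 14.1 FPKM in tumours, against 13.0, 10.98, 11.7, 10.3 and 10.9 FPKM in adjacent samples, without overlap. Its log2 change of 0.43 (SE 0.08; limma adjusted p = 0.000608) was 0.10 with medians subtracted (adjusted p = 0.210). Cyp2w1, whose human counterpart is known from fetal gut and colon tumours, did not pass, at 1.28 ± 0.729 FPKM in tumours and 1.88 ± 0.576 FPKM in adjacent tissue (SD, n = 5 each; log2 change -0.38, SE 0.23; limma adjusted p = 0.150). The threshold was passed without tumour 1 (log2 change -0.52; limma adjusted p = 0.0465) and with medians subtracted (-0.71; adjusted p = 0.0162).

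The Cyp4f subfamily, which hydroxylates leukotrienes and other fatty acids, held both fallen and risen members. Of its 9 members 6 were tested, of which 4 fell and 2 rose, where 19.3% of all genes tested fell and 57.2% rose. Cyp4f14, a hydroxylase of leukotriene B4 and vitamin E, was at 1.18, 10.1, 0.92, 5.67 and 1.32 FPKM in tumours, against 80.8, 77.9, 64.7, 86.5 and 81.6 FPKM in adjacent samples. The log2 change was -4.41 (SE 0.45; limma adjusted p = 2.66e-05), and tumours 2 and 4 kept the most. Cyp4f40 was at 2.15, 23.6, 3.11, 11.6 and 3.18 FPKM in tumours, against 29.7, 29.2, 28.3, 28.9 and 31.6 FPKM in adjacent samples (log2 change -2.13, SE 0.50; limma adjusted p = 0.00299). Adjacent samples barely differed among themselves, and tumour 2 was just below them.

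Cyp4f13 averaged 11.9 ± 1.70 FPKM in tumours and 23.4 ± 1.40 FPKM in adjacent tissue, and Cyp4f16 17.5 ± 1.16 and 31.4 ± 8.86 FPKM (SD, n = 5 each). Their log2 changes were -0.93 (SE 0.09; limma adjusted p = 2.35e-05) and -0.78 (SE 0.15; limma adjusted p = 0.000826). For these 2 genes no tumour lay above 62% of the adjacent mean or below 42% of it. Of the 50-base stretches of Cyp4f16, 26.5% occur in other genes, mostly Cyp4f37. Cyp4f18, which acts on leukotriene B4 in mouse neutrophils, was at 3.34, 7.02, 5.67, 8 and 4.61 FPKM in tumours, against 2.45, 1.91, 2.81, 0.95 and 2.26 FPKM in adjacent samples, without overlap (log2 change 1.12, SE 0.23; limma adjusted p = 0.00106). Cyp4f17 was at 3.48, 2.16, 2.82, 3.24 and 2.78 FPKM in tumours, against 1.28, 0.98, 1.16, 1.03 and 1.21 FPKM in adjacent samples, again without overlap (log2 change 0.86, SE 0.11; limma adjusted p = 5.94e-05).

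On chromosome 17, from 32452723 to 32947402 (GRCm38), Cyp4f17 lies in the same cluster as the 4 fallen members and Cyp4f15, Cyp4f37 and Cyp4f39, which were below the filter, while Cyp4f18 is on chromosome 8 (71988482 to 72009626). Neutrophil markers were higher in tumours beside Cyp4f18: 4 of 4 rose, where 57.2% of all genes tested rose. They summed to 152, 112, 311, 302 and 410 FPKM in tumours 1 to 5, and to 10.8 to 132.5 FPKM in adjacent samples. Tumour 2, with the lowest of these tumour sums, was at 7.02 FPKM for Cyp4f18, and tumour 5, with the highest, at 4.61 FPKM. The part of neutrophils in the Cyp4f18 result was not tested.

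Cyp2j6, a member known from the intestine, did not pass (log2 change 0.02, SE 0.12, limma adjusted p = 0.876). Its levels were 16.5, 21.6, 14.6, 14.5 and 13.9 FPKM in tumours, against 18.5, 16.0, 16.5, 15.1 and 13.1 FPKM in adjacent samples. The groups overlapped almost fully. Cyp4v3, the counterpart of human CYP4V2, a fatty acid hydroxylase, was at 5.49, 4.84, 4.81, 5.88 and 4.8 FPKM in tumours, against 3.15, 4.03, 4.46, 3.83 and 5.14 FPKM in adjacent samples, of which sample 5 lay within the tumour range. It passed narrowly at 0.28 on the log2 scale (SE 0.11; limma adjusted p = 0.0422), but was at -0.06 with medians subtracted (adjusted p = 0.673). Nor did it pass with no filter (adjusted p = 0.0513) or in 7 of the 10 fits that left out 1 library, which were those without adjacent sample 1, 2 or 4, or without tumour 1, 3, 4 or 5 (0.0511 to 0.0986). All 5 Cyp4a members, known in liver and kidney as targets of PPAR alpha, were at most 0.08 FPKM in any library.

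Among sterol and steroid enzymes the tested members were higher in tumours or did not pass. Cyp27a1, the mitochondrial sterol hydroxylase of bile acid synthesis, which macrophages also express, was at 40.4, 15.7, 55.6, 38.7 and 45.9 FPKM in tumours, against 14.5, 19.6, 16.2, 13.5 and 38.4 FPKM in adjacent samples. Tumour 2 lay within the adjacent range, and adjacent sample 5 lay close to tumour 4. The log2 change was 0.91 (SE 0.35; limma adjusted p = 0.0374). It no longer passed with medians subtracted (0.58; adjusted p = 0.159), nor in 8 of the 10 fits that left out 1 library (0.0603 to 0.0883), all but those without tumour 2 or without adjacent sample 5. Macrophage markers rose in 6 of 6, where 57.2% of all genes tested rose. They summed to 209, 355, 201, 238 and 214 FPKM in tumours, against 102, 53.0, 108, 35.3 and 79.4 FPKM in adjacent samples. Tumour 2, the lowest tumour for Cyp27a1, thus had the highest macrophage marker sum. The part of these cells in the Cyp27a1 result was not tested.

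Cyp39a1, a hydroxylase of oxysterols, did not pass, at 7.58 ± 2.38 FPKM in tumours and 6.01 ± 0.499 FPKM in adjacent tissue (SD, n = 5 each; log2 change 0.24, SE 0.18; limma adjusted p = 0.241). Without tumour 2, the lowest at 4.15 FPKM, the change was 0.42 (limma adjusted p = 0.00756). Cyp7b1, another oxysterol hydroxylase, was below the filter at 0.73 to 1.5 FPKM in tumours, against 0.17 to 0.47 FPKM in adjacent samples. Cyp8b1, which directs bile acid synthesis in liver to cholic acid, was at 0.32, 0.22, 0.36, 0.16 and 0.33 FPKM in tumours, against 0.04 FPKM in adjacent sample 3 and 0 in the other 4. Cyp46a1 was at 0.10 to 0.48 FPKM in tumours and 0.00 to 0.12 FPKM in adjacent samples. Cyp7a1, the rate-limiting enzyme of bile acid synthesis in liver, was at 0 in every library.

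Cyp11a1, which cleaves the side chain of cholesterol to start steroid synthesis, was at 3.60, 2.24, 4.18, 2.31 and 4.91 FPKM in tumours, against 1.05, 0.24, 0.62, 0.36 and 0.99 FPKM in adjacent samples. Every tumour was above every adjacent sample, and the log2 change was 1.42 (SE 0.21; limma adjusted p = 0.000136). Cyp21a1, a hydroxylase of glucocorticoid synthesis, was at 0.63, 5.77, 3.61, 3.66 and 2.25 FPKM in tumours, against 0.53, 0.40, 0.91, 0.32 and 1.10 FPKM in adjacent samples (log2 change 1.22, SE 0.33; limma adjusted p = 0.00634). Tumour 1 lay within the adjacent range. Of its 50-base stretches, 23.7% occur in the pseudogene Cyp21a2-ps, so its level is uncertain. Cyp11b1, Cyp17a1 and Cyp19a1, which act later in steroid synthesis, were at most 0.05 FPKM in any library, and Cyp11b2 was at 0 throughout.

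The enzymes of vitamin D and retinoic acid were all below the filter. Cyp2r1, a vitamin D hydroxylase of liver, was at 0.80, 0.84, 1.54, 1.51 and 0.94 FPKM in tumours, against 0.57, 0.86, 1.1, 0.79 and 0.84 FPKM in adjacent samples, with overlap, and Cyp27b1, which makes the active hormone, at 0.02 to 0.23 and 0.04 to 0.16 FPKM. Cyp24a1, which breaks it down, was at most 0.04 FPKM in tumours and at most 0.01 FPKM in adjacent samples. Of the retinoic acid hydroxylases, Cyp26b1 was at 0.94, 1.33, 0.51, 1.22 and 0.44 FPKM in tumours, against 0.47, 0.19, 0.31, 0.20 and 0.23 FPKM in adjacent samples, so that only tumour 5 reached the adjacent range. Cyp26a1 was at 0.05 to 0.27 and 0.00 to 0.06 FPKM. With no filter on low values, 5 of the 52 members that were below the filter but above 0 in some library passed as higher in tumours (Cyp7b1, Cyp26b1, Cyp46a1, Cyp8b1 and Cyp26a1, limma adjusted p from 0.000101 to 0.0430) and 6 as lower, where 44.5% and 14.9% of all 19733 genes then tested passed. Cyp4b1, a fatty acid and furan oxidising enzyme, was at 0.06 to 0.30 FPKM in tumours and 0.04 to 1.22 FPKM in adjacent samples.

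The 18 fallen members did not fall alike in each tumour. In 14 of them tumours 2 and 4 were both above tumours 1, 3 and 5, an order whose share over all genes was not computed. Tumour 2 exceeded tumour 4 in 9, among them Cyp2c55, Cyp2d34, Cyp4f14, Cyp4f40 and Cyp2c65, and tumour 4 exceeded tumour 2 in the other 9, among them Cyp2d9, Cyp2d10, Cyp2d12, Cyp2c68 and Cyp2f2. Relative to its adjacent mean, Cyp4f40 was kept at 79.8% in tumour 2 and 39.1% in tumour 4, against 7.28% to 10.8% in the other 3 tumours. Cyp2c65 was kept at 28.6% in tumour 2 and at most 3.49% in the other 4. Cyp2f2 was kept at 18.6% in tumour 4 and 0.815% in tumour 2. Cyp2c55 was kept at no more than 1.26% in any tumour. Over all genes tested, tumours 2 and 4 also lay nearest the adjacent samples on the first principal component, the main axis of variation. They were at 28.1 and 42.6 there, tumours 1, 3 and 5 at 64.8, 68.3 and 67.2, and adjacent samples at -70.7 to -39.6.

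**Figure D4:**
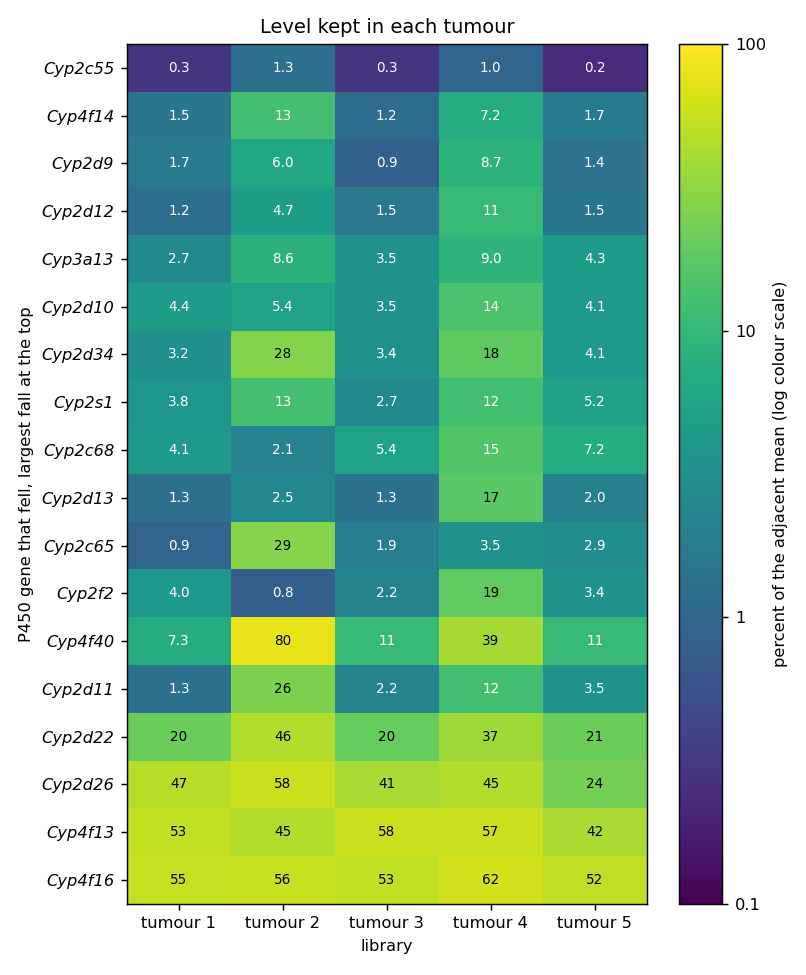
Level of each of the 18 fallen P450 genes in tumours 1 to 5 as a percentage of its mean over the 5 adjacent samples, on a log colour scale with the values printed. Tumours 2 and 4 hold the brighter columns for most genes, and Cyp4f13 and Cyp4f16 at the bottom are kept at 42% to 62% in every tumour.

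Markers of absorptive colonocytes moved with these members: 10 of 11 in the table fell and none rose, with a summed level of 226, 1229, 242, 673 and 219 FPKM in tumours 1 to 5, against 3423 to 5457 FPKM in adjacent samples. Goblet cell markers fell in 7 of 7, with sums of 1461 to 4291 FPKM in tumours and 15136 to 18562 FPKM in adjacent samples. Tumours 2 and 4 had the highest sums of both lists among tumours. In bulk tissue, fewer cells of a type and less RNA per cell cannot be told apart, and the part of these cells in the P450 results was not tested. Crypt base markers rose in 4 of 5 (with medians subtracted the other one fell), with sums of 210 to 327 FPKM in tumours and 49.4 to 113 FPKM in adjacent samples. Hepatocyte markers did not move as 1 list, with 1 of 3 tested lower and Fgb at 0 in every library. Their sums were 12.4 to 64.0 FPKM in tumours and 41.7 to 71.5 FPKM in adjacent samples, mostly from Tat, Ttr and Alb. Small intestinal enterocyte markers summed to 0.05 to 0.76 FPKM in tumours and 2.18 to 6.76 FPKM in adjacent samples. The adjacent sums came mostly from Alpi, the 1 marker tested, at 1.76 to 6.61 FPKM there, which fell. The other listed ones were at most 0.33 FPKM in any library, and Lct was at 0.04 to 0.12 FPKM in tumours and 0.01 to 0.05 FPKM in adjacent samples. Fibroblast markers rose in 6 of 6, endothelial ones in 5 of 5 (4 with medians subtracted) and smooth muscle ones in 2 of 5. Squamous ones rose in all 3 tested of 5, while Krt5 and Trp63 were at most 0.02 and 0.03 FPKM in any library. Beside all these marker counts, 57.2% of all genes tested rose and 19.3% fell, or 34.5% and 33.3% with medians subtracted. The 1 adipocyte marker tested, Cidec, fell, while Lep was at 0 in every library.

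The partners and regulators of P450 enzymes moved in both directions. Of 38 tested genes from 4 lists, 15 rose and 16 fell (39.5% and 42.1%, against 57.2% and 19.3% of all genes tested), with a median log2 change of 0.04. With medians subtracted 5 rose and 23 fell (over all genes 34.5% and 33.3%), and with quantile normalization 9 and 20 (over all genes 36.6% and 30.2%). Of 9 electron transfer genes, Cyb5r3 and Fdx1l rose by 0.34 (SE 0.08) and 0.33 (SE 0.11) and Pgrmc1 and the mitochondrial ferredoxin gene Fdx1 fell by 0.29 (SE 0.11) and 0.28 (SE 0.07). With medians subtracted none rose and 6 fell. Por, the electron donor of microsomal P450s, was at 50.01 ± 4.63 FPKM in tumours and 56.8 ± 6.90 FPKM in adjacent tissue (SD, n = 5 each; log2 change -0.18, SE 0.09; limma adjusted p = 0.106), and fell by 0.51 with medians subtracted (adjusted p = 0.00100).

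Of 10 genes of haem synthesis and breakdown, 8 rose and 1 fell, where 57.2% of all genes tested rose and 19.3% fell. With medians subtracted only 2 rose and 2 fell, where 34.5% of all genes rose and 33.3% fell. Hmox1, the inducible haem oxygenase that degrades haem, was at 38.6, 29.3, 54.0, 60.8 and 24.1 FPKM in tumours, against 5.98, 3.67, 7.39, 3.36 and 8.24 FPKM in adjacent samples (log2 change 2.64, SE 0.29; limma adjusted p = 3.64e-05). Alas1, the rate-limiting enzyme of haem synthesis, was at 39.4, 52.5, 41.4, 42.1 and 36.1 FPKM in tumours, against 65.5, 58.8, 57.3, 68.7 and 55.3 FPKM in adjacent samples (log2 change -0.53, SE 0.10; limma adjusted p = 0.000767). Neither gene's groups overlapped. Ppox and Urod, later enzymes of the pathway, rose by 0.59 (SE 0.12) and 0.56 (SE 0.13).

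Of 16 tested regulators of P450 transcription, 12 fell and 4 rose (75% and 25%), where 19.3% of all genes tested fell and 57.2% rose. With medians subtracted 13 fell and 2 rose, where 33.3% of all genes fell and 34.5% rose. Vdr, the vitamin D receptor, which also drives CYP3A genes, was at 9.27, 12.3, 6.13, 12.0 and 5.15 FPKM in tumours, against 65.5, 78.0, 71.1, 90.5 and 98.7 FPKM in adjacent samples (log2 change -3.09, SE 0.22; limma adjusted p = 1.06e-05). Nr5a2, a driver of intestinal steroid synthesis, was at 0.27, 1.06, 0.37, 1.2 and 0.36 FPKM in tumours, against 9.51, 7.25, 8.49, 10.98 and 7.37 FPKM in adjacent samples (log2 change -2.58, SE 0.18; limma adjusted p = 9.63e-06). Nr5a2 thus fell while Cyp11a1 rose, and the part of Nr5a2 in the Cyp11a1 result was not tested. Nr1h4, the bile acid receptor FXR, averaged 6.24 ± 5.33 FPKM in tumours and 34.3 ± 7.04 FPKM in adjacent tissue (SD, n = 5 each; log2 change -2.54, SE 0.41; limma adjusted p = 0.000251).

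Nr1i2, the xenobiotic receptor PXR, was at 6.41, 14.2, 4.43, 12.0 and 6.18 FPKM in tumours, against 29.3, 36.1, 30.8, 32.6 and 30.7 FPKM in adjacent samples (log2 change -1.88, SE 0.25; limma adjusted p = 8.94e-05). Nr1i3, the receptor CAR, was below the filter at 0.04 to 0.76 FPKM in tumours, against 0.84 to 2.63 FPKM in adjacent samples. Its classical target Cyp2b10 was higher in tumours. The part of Nr1i3 in the Cyp2b10 result was not tested. Hnf4a, a hepatic and intestinal factor that binds CAAAGTCCA, was at 95.6 ± 26.2 FPKM in tumours and 227 ± 20.5 FPKM in adjacent tissue (SD, n = 5 each; log2 change -1.27, SE 0.16; limma adjusted p = 4.94e-05). Ahr, the aryl hydrocarbon receptor, rose and was at 14.2, 10.4, 14.5, 10.1 and 13.2 FPKM in tumours, against 5.24, 4.47, 5.57, 4.63 and 6.13 FPKM in adjacent samples (log2 change 1.11, SE 0.12; limma adjusted p = 2.79e-05). Its classical target Cyp1a1 was at most 0.16 FPKM in any library, and its target Tiparp fell by 0.37 (SE 0.11, limma adjusted p = 0.0126). Cyp1b1, below the filter, was at 0.03 to 0.30 FPKM in tumours and 0.03 to 0.14 FPKM in adjacent samples. Ahrr, another listed regulator below the filter, was at 0.03 to 0.40 and 0.09 to 0.42 FPKM in the same order. The part of Ahr in the levels of these genes was not tested. Rarg and Rara, retinoic acid receptors, rose by 1.08 (SE 0.15) and 0.55 (SE 0.11), though with medians subtracted Rara did not pass (adjusted p = 0.0709). Por, Nr1i2, Nr1i3, Hnf4a, Tiparp, Ahrr and Cyp1b1 were singled out for their roles after their values were seen. Of the epoxide hydrolases, which open the epoxides that P450 enzymes form, Ephx2, which acts on fatty acid epoxides, fell by 1.92 (SE 0.33) and Ephx1, the microsomal enzyme, rose by 0.96 (SE 0.26), while Ephx4 did not pass.

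**Figure D5:**
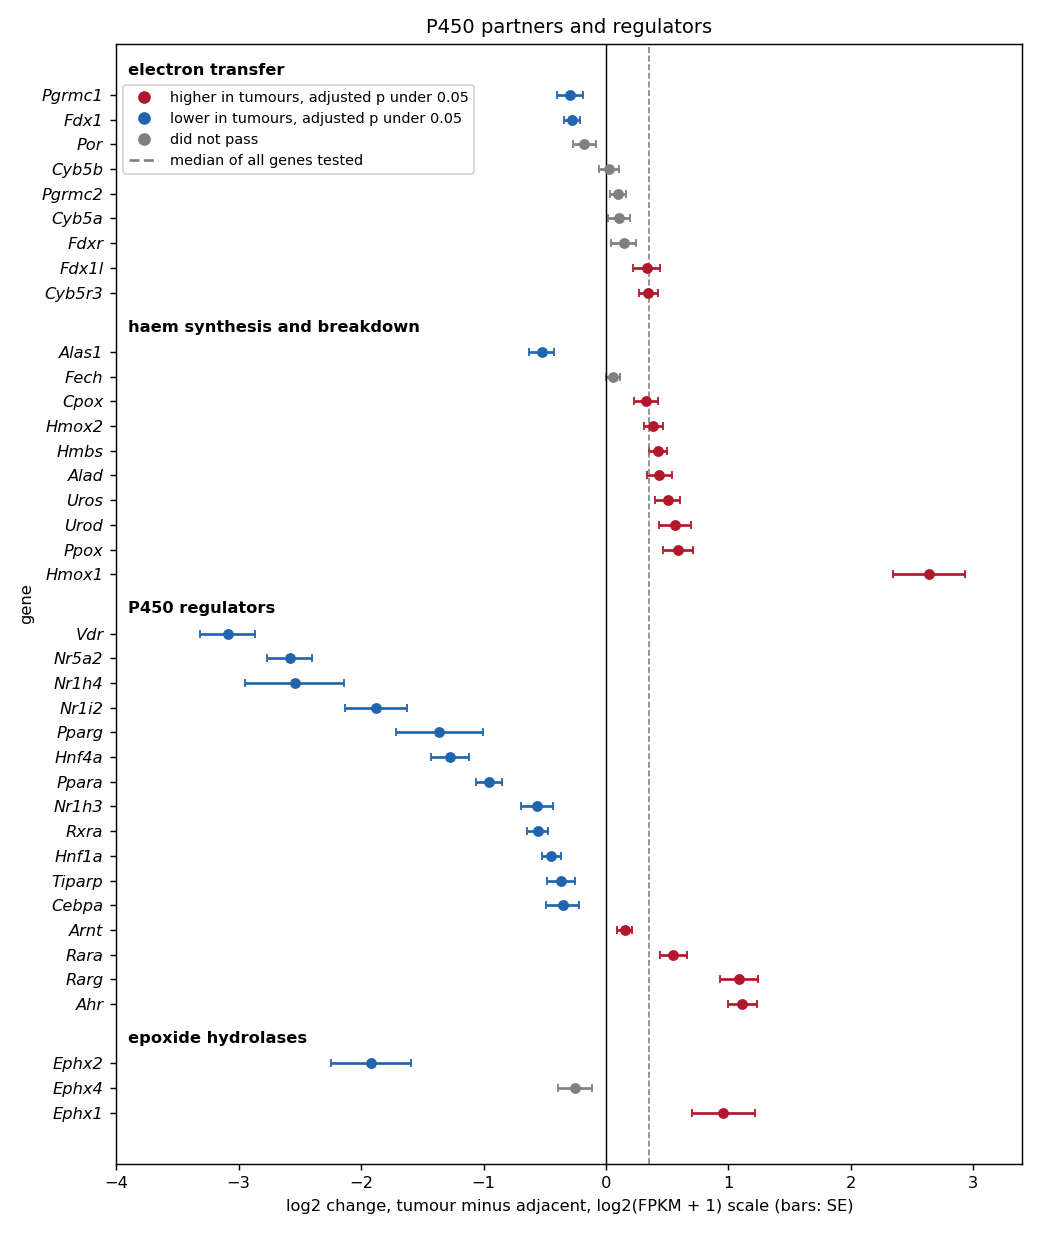
Log2 change, tumour minus adjacent, of 38 tested genes of 4 lists on the log2(FPKM + 1) scale, with bars for the SE and a dashed line at 0.35, the median of all genes tested. Vdr, Nr5a2 and Nr1h4 lie lowest and Hmox1 highest.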

How the data were processed

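Per the labels' protocols, oligo-dT beads selected the RNA and TruSeq RNA v2 libraries were read on a HiSeq. Tools in the submitters' processing notes are DESeq2 1.14.1, edgeR 3.16.5, Cufflinks 2.2.1, TopHat2 2.1.0, Salmon 0.8.2, RSEM 1.2.15 and GATK, with the build mm10, and their roles are not stated. The authors deposited FPKM per gene; 1 line of text was left out. Depth was estimated from 162 to 218 low values per library of genes with 1 annotated transcript: 71.0% to 79.2% lay within 0.2 of a whole fragment, against at most 72.0% with lengths shuffled, so it is rough, and no counting interval was computed.

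The model, in R 4.3.3 with limma 3.58.1, had log2(FPKM + 1) as response and the group alone as covariate, with intensity trend and robust empirical Bayes, two-sided, with Benjamini-Hochberg adjustment over all 13016 genes tested, at 0.05. The fit was tested on simulated data. Alternatives were other pseudocounts (0.1 and 5), filters (none and 5 FPKM), scalings, a fit without trend, a replicate block, both tumours 2 and 4 left out, and each library left out.

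The members, gene lists and classes were chosen with earlier results of these data known. Every tested member could be named; values of all libraries are given for the 12 largest falls, the 8 largest rises and the most abundant member of each class, with up to 3 rises and falls per partner list. Positions are from GENCODE M21 (GRCm38, the assembly called mm10), which matched 92 members, and promoters from RefSeq, which matched 73. Shared stretches of 50 bases were counted in the longest coding transcript of each tested member except Cyp2d13 against all other GENCODE genes.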

Additional observations from a re-analysis of the deposited data

Results flagged for a closer look

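Of 58 groups of 5 values examined (29 tested genes in tumours and in adjacent tissue, on the log2(FPKM + 1) scale), 6 had 1 library far from the other 4; chance gives about 1 in 20. Tumour 4 stood high for Cyp2d10, at 6.95 FPKM against 1.70 to 2.64 FPKM in the other tumours, for Cyp2d13, at 2.39 FPKM against 0.18 to 0.36 FPKM, and for Cyp2f2, at 1.6 FPKM against 0.07 to 0.34 FPKM. Tumour 2 stood high for Cyp2c65, at 4.6 FPKM against 0.15 to 0.56 FPKM. Adjacent sample 2 stood high for Cyp2d34, at 173.9 FPKM against 133 to 143 FPKM in the other adjacent samples, and low for Cyp2d26, at 5.78 FPKM against 7.85 to 8.56 FPKM. Without tumour 4 the log2 changes of Cyp2d10 and Cyp2d13 were -3.97 and -3.57, and without tumour 2 that of Cyp2c65 was -3.50.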

How the results depend on the processing

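All 18 fallen members kept their direction and stayed past the threshold under every alternative that gave a value, and no called member's log2 change moved by over 1.5 times when 1 library was left out. Leaving out each library in turn gave 18 to 19 members lower and 6 to 9 higher. Without tumours 2 and 4 together 18 were lower and 8 higher. Members higher in tumours numbered 5 with medians subtracted and 5 with quantile normalization, and 2 of 19 tested at a filter of 5 FPKM. Partners and regulators higher in tumours numbered 5 with medians subtracted and 9 with quantile normalization. Over all genes, medians subtracted gave 4486 higher and 4329 lower, and quantile normalization 4759 and 3934. The cause was not tested beyond the construction of each scaling. Cyp2j6, Cyp39a1 and Cyp4v3 turned to -0.308, -0.0864 and -0.0551 with medians subtracted and to -0.25, -0.19 and -0.21 with quantile normalization. Cyp2j6 was also at -0.0679 without tumours 2 and 4, and from -0.0795 to 0.0776 when 1 library was left out. Cyp39a1 passed without tumours 2 and 4 (0.49; limma adjusted p = 0.00331). With the replicate block 18 members fell and 7 rose, without Cyp4v3 (limma adjusted p = 0.0802), and 13 partners and regulators rose and 15 fell: Fdx1l (0.0508), Arnt (0.0571), Pgrmc1 (0.0716) and Cebpa (0.0524) did not pass and Ephx4 did (0.0189). Deviations of like-numbered samples correlated at 0.022 to 0.422, over 0.1 in 3 of 5 pairs, and those of other pairs at -0.442 to 0.322. Of 10 samples, 4 correlated best with their own number. These values do not settle whether the numbers pair samples, so the main fit left pairing out. Depth limits values near 0.02 FPKM, which rest on single fragments.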

Other observations

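P450 genes with symbols outside the naming rule differed among themselves. Tbxas1, the thromboxane synthase of platelets and macrophages, rose and was at 2.33, 4.98, 2.79, 4.11 and 4.03 FPKM in tumours, against 1.39, 0.45, 1.29, 0.44 and 1.40 FPKM in adjacent samples (log2 change 1.23, SE 0.21; limma adjusted p = 0.000387). Cyp51, an enzyme of cholesterol synthesis, did not pass, at 45.1 ± 2.34 FPKM in tumours and 45.2 ± 8.93 FPKM in adjacent tissue (SD, n = 5 each; log2 change 0.02, SE 0.12; limma adjusted p = 0.898), and it was at -0.31 with medians subtracted (adjusted p = 0.0374). Ptgis, prostacyclin synthase, was below the filter at 0.19 to 1.15 FPKM in tumours and 0.24 to 0.67 FPKM in adjacent samples. Cyp4a12a and Cyp4a12b were at 0 in every library, and Cyp3a41a and Cyp3a41b at 0.01 FPKM in adjacent sample 5 and 0 elsewhere.

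Adjacent sample 5 had the highest adjacent level of 10 of the 18 fallen members, among them Cyp3a13, Cyp2d9 and Cyp2f2, and the lowest of 2, Cyp2c55 and Cyp2c65. Cyp2c55 made up 9.40% of its summed P450 expression, against 16.5% to 43.9% in the other 4 adjacent samples.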
